A study of Drosophila melanogaster and Nicrophorus vespilloides with 16 samples.

Results

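The spliceosome protein genes described here are the 33 protein-coding genes, of 13922 searched in Drosophila melanogaster, whose symbols mark them as Sm, LSm, Prp, SF3a, SF3b, U2AF, U2A or snRNP-named proteins. They were taken by symbol from the RefSeq gene table (Release 6), with no measured value in the rule. The data are H3K4me3 ChIP-seq peak summits from 4 replicates of third-instar larvae of the Oregon-R strain. Each replicate pooled 30 whole larvae, fixed with 1% formaldehyde, and the antibody step ran on Chromatrap columns, in which a porous disc takes the place of beads. Per the labels, the aim was to optimise the ChIP-seq protocol for insects. Its 4 beetle brain ChIP samples and its 8 input libraries were not used here. Because whole animals were pooled, a mark in few cells and a weak mark in many cells cannot be told apart.

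The spliceosome removes introns from pre-mRNA. It is built from small nuclear ribonucleoproteins (snRNPs), each made of a small nuclear RNA (snRNA), a ring of Sm or LSm proteins and particle-specific proteins. The U1 snRNP recognises the start of an intron, U2AF and the U2 snRNP with its SF3a and SF3b subcomplexes recognise the branch point and the end of the intron, and the U4/U6.U5 particle then brings in the catalytic core. Prp proteins, named after yeast pre-mRNA processing mutants, include helicases, scaffolds and a ubiquitin ligase that drive these steps. These genes are needed in nearly every cell type. H3K4me3, trimethylation of lysine 4 of histone H3, is a mark of nucleosomes just downstream of active transcription starts.

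A summit is the base of highest enrichment in a called peak, and the 4 lists hold 3518, 4969, 5236 and 5313 summits in replicates 1 to 4. Each summit carries a score in the form of a −log10 p or q, which depends on sequencing depth, so strength is given as a percentile. The percentile is the share of that replicate's summits that score no higher than the strongest summit within 1 kb of the gene's ends, and a gene with no summit there gets 0. Replicate 1 had the shortest list and the lowest median score, and the median score rose with each further replicate. The median score of all summits was 5.97 in replicate 1, 8.83 in replicate 2, 15.2 in replicate 3 and 24.7 in replicate 4. Read depth is unknown, and its part in these differences was not tested.

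All 33 genes were marked, which here stands for a summit no more than 1 kb from a gene end, inside or outside, in 3 or 4 replicates. Of all protein-coding genes 43.9% were marked by the same rule. A summit in all 4 replicates was found at 28 members (84.8%), against 33.7% of all genes. Per replicate, 29, 32, 33 and 33 members had a summit in replicates 1 to 4. The all-gene shares in the same order were 35.8%, 43.8%, 46.6% and 48.6%. The mean share per replicate was 96.2% ± 5.74 (SD, n = 4) for the members and 43.7% ± 5.63 for all genes, so the gap between the sets was wider than the spread between replicates. With replicate 1 left out and a summit asked for in at least 2 of the other 3, all 33 members were again marked, against 46.8% of all genes.

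Fly genes are tightly packed, and this bears on every count. Another coding gene lay within 1 kb of 32 of the 33 members. Of all genes 87.6% had such a neighbour, and 48.9% of those genes were marked, against 32 of 32 members. The member without one was snRNP-U1-70K, whose nearest coding gene was 1067 bp away. Overlap with another coding gene was found at 22 members, and no share of all genes is given for it. The count of marked genes was therefore repeated under 4 stricter rules. A summit inside the gene itself was found in at least 3 replicates at 26 members, against 31.1% of all genes. Asking also that no other coding gene covered the summit left 24 members, against 27.8% of all genes. Giving each summit only to the gene of its nearest end left 26 members, against 30.5%. With a window of 250 bp, 16 members were marked, against 18.9%.

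**Figure D1:**
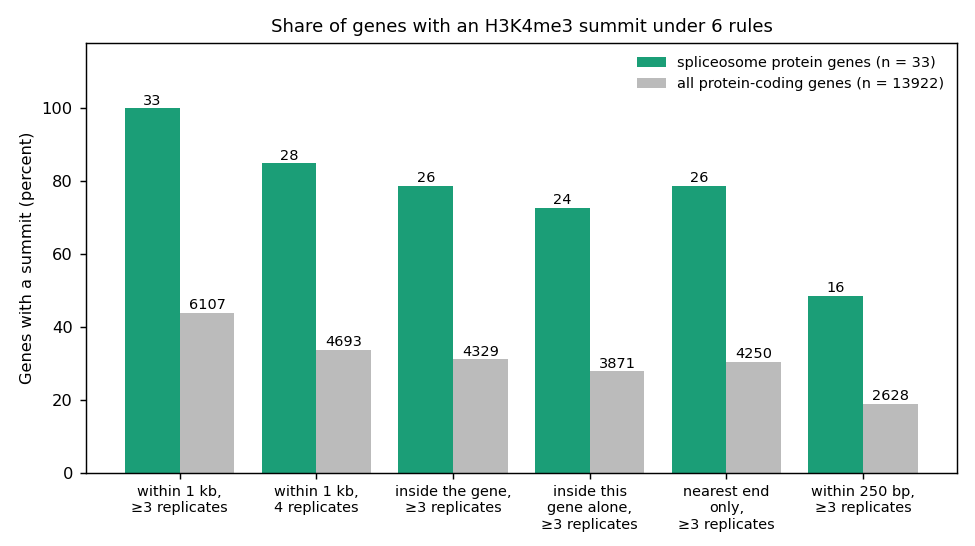
Bars give the percent of genes with an H3K4me3 summit under 6 rules, for the 33 spliceosome protein genes (green) and all 13922 protein-coding genes (grey), with the number of genes above each bar. The members' share runs from 33 of 33 within 1 kb in at least 3 replicates to 16 of 33 within 250 bp, and it is above the share of all genes under each of the 6 rules.

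The summits sat at a narrow distance inside the gene. Summits at most 250 bp apart were joined across replicates into 77 sites near the members, of which 51 held at least 3 replicates, 11 held 2 and 15 held 1. Of those 51 sites, 26 lay inside the member, 1 in each of 26 genes, and their median positions ran from 138 to 282 bp inside the nearest end, with a median of 214 bp. Averaged over replicates, the inside summit lay at a median depth of 215 bp over these 26 genes and of 222 bp over the 4329 genes of the whole table with such a summit. The quartiles were 177 and 245 bp for the members and 189 and 280 bp for all genes. Sites found in all 4 replicates spanned a median of 120 bp between their outermost summits, with a range of 27 to 262 bp. The smallest span was that of Prp40, at 27 bp.

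Longer genes allow their ends to be told apart, although the gene table used here gives no strand. Of the 16 members over 2 kb in length, 15 had an inside site at 1 end, none had one at both ends, and 1 (Prp3) had none in 3 replicates. No share of all genes over 2 kb is given for this count, so it cannot be read as particular to the members. The largest member, Prp16, a DEAH-box helicase of the second catalytic step, spans 23371 bp on X (14201362 to 14224732). Its only site in at least 3 replicates lay 214 bp inside the lower-coordinate end. Prp8, the scaffold of the catalytic core, spans 8741 bp on 2R, and its only site lay 148 bp inside the higher-coordinate end. Prp40, a U1-associated factor in yeast, and Sf3b2, an SF3b subunit, overlap by 188 bp on 2L (3026252 to 3026439). Each carried an inside site at its far end, at a median of 170.5 bp in Prp40 and 191 bp in Sf3b2. No summit of any replicate lay within 1 kb of the overlap.

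**Figure D2:**
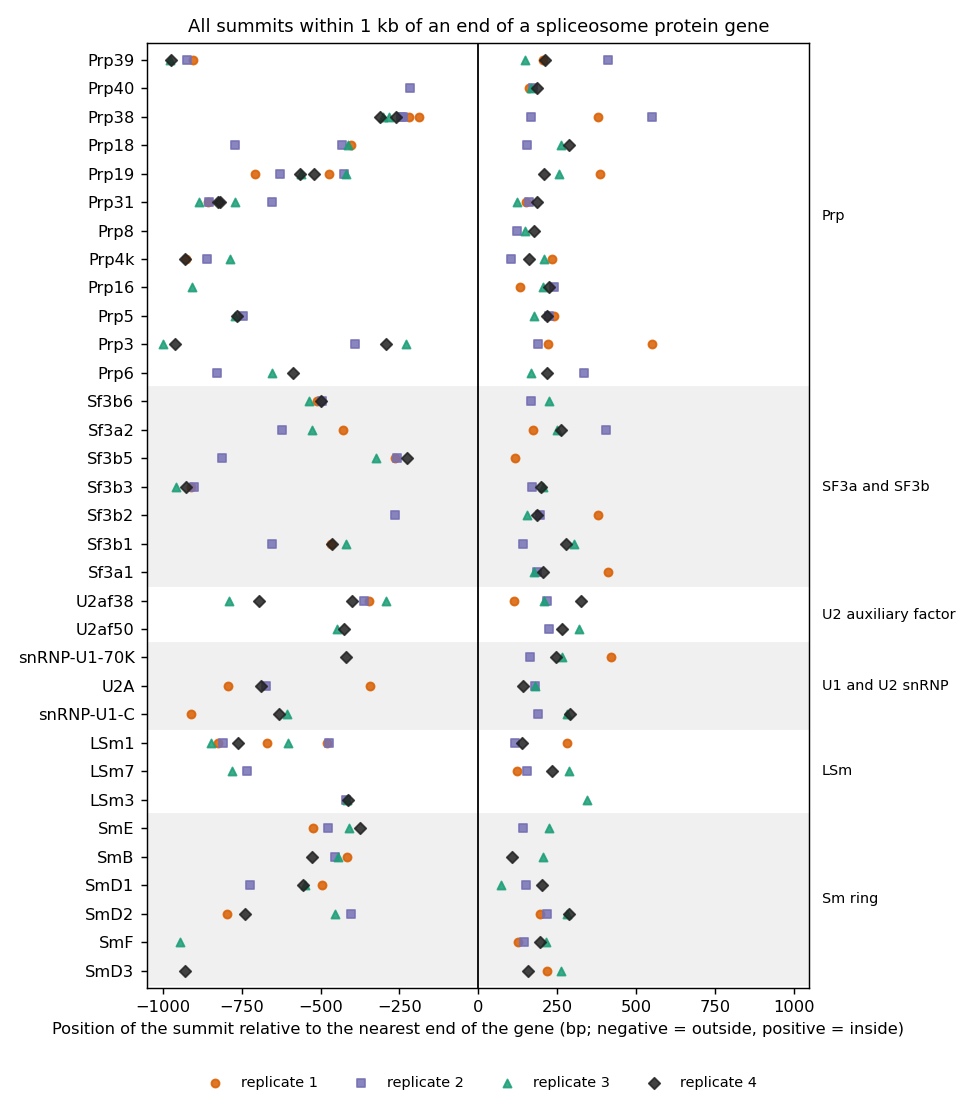
Each point is a summit within 1 kb of an end of a spliceosome protein gene, plotted by its distance in bp from the nearest end (negative outside the gene, positive inside), with 1 row per gene, shading by protein family and symbols for replicates 1 to 4. Inside summits gather in a band around the median of 214 bp. Outside summits scatter from 189 bp beyond the end to the 1 kb limit.

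The 25 sites outside the members all lay inside another coding gene. Where more than 1 neighbour covered a site, the one with the nearer end was taken. By that choice the sites stood 158 to 318.5 bp inside the nearest end of the neighbour, with a median of 210 bp, and 24 of the 25 were at most 300 bp inside it. The other covering gene gave 1613 bp for the SmE site (in CG7102) and 1118.5 bp for a Prp31 site (in CG7011). Both kinds of site were found at 14 members, an inside site alone at 12 and an outside site alone at 7. At 11 members an inside and an outside site flanked the same gene end. These site counts have no share of all genes beside them and describe the members only. The 7 members with an outside site alone were SmE, SmB, LSm3, Sf3b5, Sf3b6, Prp3 and Prp38. Each of these had a summit inside the gene too, but in 1 replicate (LSm3 and Sf3b5) or 2.

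The Sm proteins form the ring that encircles the U1, U2, U4 and U5 snRNAs. The rule also covers SmG, but no coding gene searched carried that symbol, so the ring is not complete here. All 6 Sm genes found by the rule were marked, 5 of them in 4 replicates and 4 through a summit inside the gene. Their median of mean percentiles was 65.5. SmE (2L, 7884930 to 7885450) led this group with a mean percentile of 75.3 ± 28.6 (SD, n = 4). Its strongest summits had percentiles of 33.6, 98.9, 84.8 and 84.0 in replicates 1 to 4, low in replicate 1 alone. All of these summits lay beyond the end of SmE, where CG7102 and CG34132 overlap, and SmE itself held summits in replicates 2 and 3 only, where CG7102 overlaps it.

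SmB stood at 67.2, 38.5, 91.7 and 78.0 in replicates 1 to 4. Its strongest summit lay in each replicate inside KdelR, the receptor that returns proteins to the endoplasmic reticulum, while Wdfy2 ends 1 bp from the other end of SmB. SmD1 stood at 78.1, 54.9, 59.5 and 72.1, again through summits inside its neighbour, the receptor tyrosine phosphatase gene Ptp69D. An inside site of SmD1 was present in replicates 2, 3 and 4, at percentiles of 7.29, 0.707 and 51.8, so it was low in replicates 2 and 3 and near the middle in replicate 4.

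SmD2 and SmF carried their strongest summit inside the gene in all 4 replicates. SmD2 had percentiles of 37.0, 64.9, 66.5 and 90.8, and SmF of 48.5, 36.3, 77.6 and 50.5. The SmF site is also covered by CG13175 and CG33964, which overlap SmF, so its summits cannot be given to 1 gene. SmD3 (2R, 12168731 to 12170003) was the lowest of the 33 genes, with a mean percentile of 30.1 ± 25.2 (SD, n = 4). Its strongest summits reached percentiles of 19.9, 56.9 and 43.5 in replicates 1, 3 and 4, all where SmD3 overlaps Oda, and in replicate 2 the nearest summit was 3991 bp from an end.

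LSm proteins form related rings. LSm1 belongs to the cytoplasmic ring that acts in mRNA decay, and LSm3 and LSm7 are shared with the nuclear ring on U6 snRNA. LSm1 (2R, 21169969 to 21170672) was the highest of the 3 and the second highest member, at 90.8 ± 6.98 (SD, n = 4), with percentiles of 86.4, 97.0, 83.3 and 96.4. None of these strongest summits lay in LSm1: those of replicates 1, 3 and 4 lay in hng1 and that of replicate 2 in Xpd, a helicase gene of the TFIIH complex. LSm1 had an inside site as well, in replicates 1, 2 and 4, with percentiles of 79.0, 23.6 and 80.4.

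LSm7 had percentiles of 34.0, 38.1, 74.1 and 91.0, lower in replicates 1 and 2 than in 3 and 4, and a summit inside the gene in all 4, although its strongest one lay in BuGZ in replicate 2. LSm3 had none in replicate 1, where the nearest summit was 3561 bp from an end, and 63.8, 73.5 and 80.4 in replicates 2 to 4. Its strongest summits in those replicates fell within 8 bp of each other inside CG33108. Replicate 3 had a weaker one inside LSm3, where CG33108 overlaps it, at a percentile of 27.4. LSm-4, a further ring subunit whose hyphenated symbol keeps it outside the rule, was marked in 4 replicates with a summit inside the gene in each, at 74.2 ± 15.9 (SD, n = 4).

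Of the U1 and U2 snRNP proteins, snRNP-U1-70K, which binds U1 snRNA, had the highest mean percentile at 80.4 ± 32.8 (SD, n = 4). Its percentiles were 31.4, 97.5, 99.1 and 93.9, so replicate 1 was far below the other replicates. It has no coding neighbour within 1 kb, and its strongest summit lay inside the gene in all 4 replicates, at 2L 6971315 to 6971573. U2A, a protein of the U2 snRNP, had 32.6, 71.7, 95.6 and 93.2, and its strongest summit lay in CG12107 in replicate 1 and inside the gene in the others. snRNP-U1-C, which helps U1 contact the 5′ splice site, had 34.3, 91.2, 56.4 and 40.0, with the strongest summit inside the gene in replicates 2 to 4 and inside gukh in replicate 1. All 3 genes were lowest in replicate 1.

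The U2 auxiliary factor reads the end of the intron, its large subunit binding the polypyrimidine tract and its small subunit the terminal AG. U2af38 (2L, 292959 to 294681), the small subunit, had percentiles of 92.8, 64.9, 87.1 and 42.3, with the strongest summit inside the gene in replicates 1, 3 and 4 and inside CG11562 in replicate 2. U2af50, the large subunit, was the second lowest member at 31.7 ± 22.9 (SD, n = 4). It had no summit in replicate 1, where the nearest was 3282 bp from an end, and 31.1, 43.5 and 52.3 in replicates 2 to 4, the strongest summit each time inside the gene on X (16356696 to 16359039). The pair thus differed in mean percentile, and their replicate values overlapped.

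SF3a and SF3b anchor the U2 snRNP at the branch point. All 7 genes were marked in all 4 replicates, 5 of them with an inside summit in at least 3, and their median of mean percentiles was 66.2. Sf3b6 (3L, 6192124 to 6193179), which contacts the branch point adenosine in human spliceosomes, led them at 86.4 ± 10.4 (SD, n = 4), with percentiles of 96.9, 72, 88.5 and 88.0. Its strongest summit was inside the gene in replicate 3 only and otherwise inside Tnpo, the nuclear import receptor Transportin. Sf3b5, the shortest member at 370 bp, had 78.0, 51.8, 86.6 and 98.7, all from summits inside Kcmf1. The gene itself held a summit in replicate 1 alone.

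Sf3b1, the subunit that clamps the branch helix, had the largest SD of the members with a summit in all 4 replicates, at 35.2. Its percentiles were 18.2, 29.5, 77.4 and 89.8, with replicates 1 and 2 well below 3 and 4. The strongest summits of replicates 1, 3 and 4 lay inside Nle, whereas the inside site of Sf3b1 (2L, 568482 to 568643) was present in replicates 2 to 4. Sf3b3, a scaffold of SF3b, spanned a similar range with 20.5, 80.7, 94.4 and 69.2, all through summits in CG42553, and its inside site appeared in replicates 2 to 4. The remaining members, Sf3a1, Sf3a2 and Sf3b2, had an inside summit in every replicate. Sf3a2 was steady at 93.0, 80.5, 71.3 and 75.6, and Sf3b2 stood between 52.2 and 84.3, with its strongest summit in CG17219 in replicate 2. Sf3a1 was the lowest of the group at 17.3, 23.2, 68.1 and 55.7, low in replicates 1 and 2.

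The Prp factors held both the strongest member and the sharpest gap between replicates. All 12 were marked, 10 in all 4 replicates and 10 through an inside summit, with a median of mean percentiles of 76.1. Prp39, a U1-associated factor in yeast, was the highest of the 33 genes at 97.2 ± 1.64 (SD, n = 4), the smallest SD of any member. Its percentiles were 97.2, 99.5, 96.3 and 95.9, so every replicate placed it near the top. The replicate 1 summit lay 206 bp inside Prp39, but those of replicates 2 to 4 lay in wdn, a zinc-finger gene. At the inside site of Prp39 (3R, 28812251 to 28812513) the percentiles were 97.2, 6.40, 76.7 and 35.5, a wider spread than that of the strongest summits.

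Prp8 ranked at the very top of 3 replicates and was missing from the other. Its summit had scores of 28.3, 39.8 and 64.0 in replicates 2, 3 and 4, the highest of any member in each, and percentiles of 99.9, 99.2 and 99.3. The summits lay 122, 148 and 175 bp inside the gene. In replicate 1 the nearest summit to either end of Prp8 was 3528 bp away. Prp6, which bridges U5 to U4/U6 in the tri-snRNP, was also without a summit in replicate 1 and had 47.7, 79.8 and 79.3 in replicates 2 to 4, the second of these inside CSN1b. Of the 5 members missing in 1 replicate, 4 (Prp8, Prp6, LSm3 and U2af50) were missing in replicate 1, which has the fewest summits, and SmD3 was missing in replicate 2. Whether the shorter list accounts for these gaps was not tested.

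Prp40 reached 98.7, 80.7, 70.2 and 97.4, inside the gene each time, and its replicate 1 score of 14.6 was the highest of the members there. Prp38, a factor that joins with the tri-snRNP, had 74.5, 81.7, 81.5 and 91.9 and had outside sites at both ends, in shrb, an ESCRT-III gene, and in CG30344, each in 4 replicates. Prp3, a U4/U6 protein, had 14.8, 93.0, 40.5 and 70.8, a wide scatter. Its strongest summit lay inside the gene in replicates 1 and 2 and inside Mi-2, the ATPase of the NuRD remodeller, in 3 and 4, on either side of the same gene end. The Mi-2 site was present in replicate 2 as well, at a percentile of 32.2.

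At several Prp genes the strongest summit moved from one end or gene to another between replicates. The widest moves were 5040 bp at Prp4k, a kinase of the tri-snRNP, 4807 bp at Prp19, a ubiquitin ligase of the spliceosome, and 3743 bp at Prp31, a U4/U6 protein. At Prp4k the strongest summit lay in CG13876 in replicates 1 and 2 (percentiles 45.0 and 81.9) and inside Prp4k in replicates 3 and 4 (86.7 and 78.4). Both sites were present in all 4 replicates, so the strongest summit changed place while both sites stayed. Prp19 had 93.6, 58.6, 74.1 and 89.5 from summits in Lamtor2 and CG30120, which overlap, or in rswl, and an inside site in replicates 1, 3 and 4. Prp31 had 76.3, 83.6, 69.7 and 80.7, with an inside site in all 4 replicates and sites in Msh6 and in the overlap of CG7011 and CG6878 on either side.

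Prp18, a second-step factor, stood between 66.2 and 88.5, inside the gene in replicates 3 and 4 and inside CG6013 in 1 and 2. Prp5, an ATPase that acts on the U2 snRNP, had 47.7, 68.7, 38.8 and 80.1, and Prp16 had 65.9, 64.7, 73.9 and 53.6. Both are X-linked and held their strongest summit inside the gene in every replicate.

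**Figure D3:**
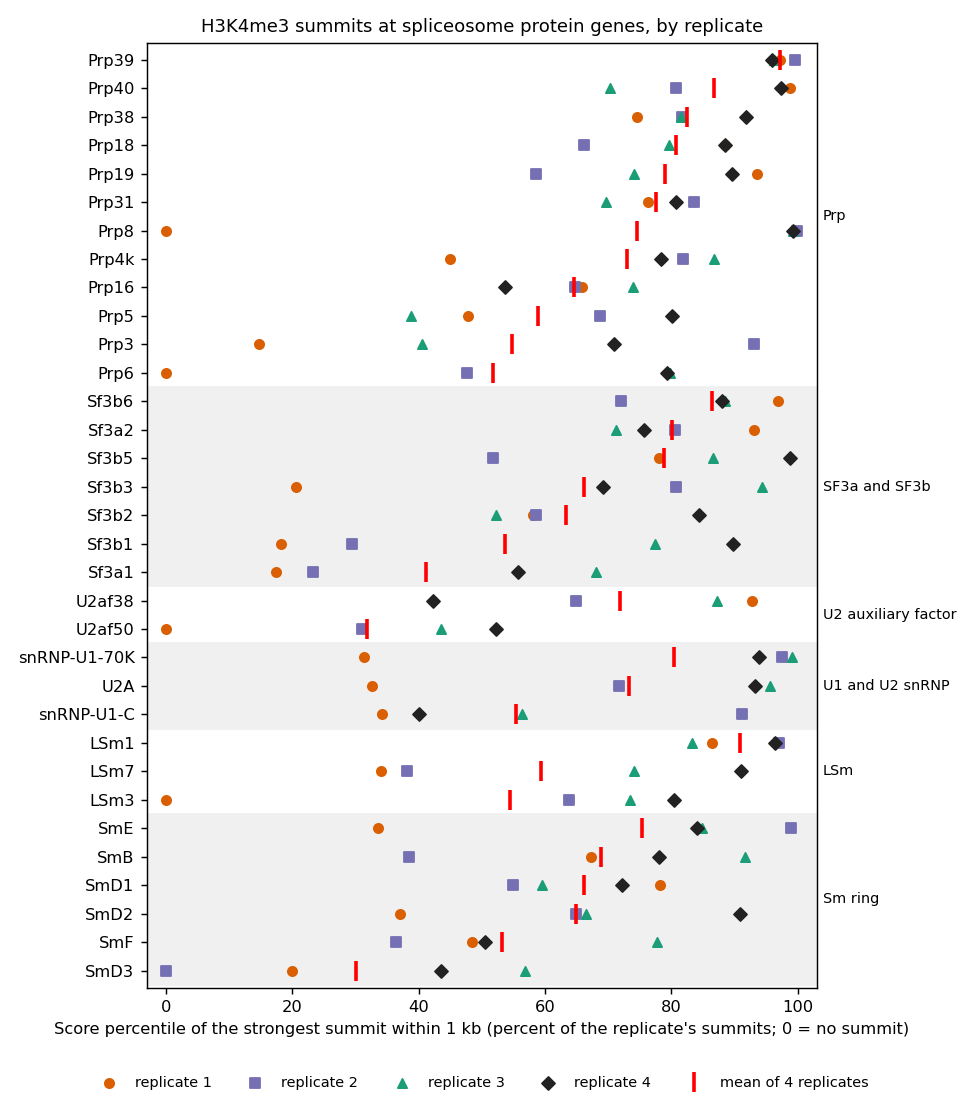
Points give the score percentile of the strongest summit within 1 kb of each spliceosome protein gene in replicates 1 to 4 (0 means no summit), red bars the mean of 4 replicates, and shading the protein families. Prp39 is above 95 in every replicate, in replicates 2 to 4 through summits in its neighbour wdn. Prp8 is above 99 in 3 replicates, through summits inside the gene, and at 0 in replicate 1. SmD3 and U2af50 have the lowest means.

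Over the 33 genes the mean percentile ran from 30.1 to 97.2, with a median of 68.9. The median over all coding genes, unmarked ones included, was 0.0759, and over all marked genes it was 60.0. Of the members 22 lay above that second median. In replicate 1 the members with a summit had a median percentile of 58.2, below the 60.5 of all genes with one. In replicates 2 to 4 the members' medians were 67.5, 77.4 and 80.7, against 64.1, 64.3 and 63.8. The members' median was thus the higher one in 3 of 4 replicates, and their share of genes with a summit in all 4. These percentiles include summits that lie in neighbours: the strongest summit was outside the gene in at least 3 replicates at 13 members, in 1 or 2 at 9 and in none at 11. No such split is given for all genes, so the part of neighbours' summits in either set of medians was not compared.

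The order of the members was only loosely shared between replicates. Spearman's rho across the members with a summit in both replicates ran from 0.0758 between replicates 1 and 2 (28 genes) to 0.437 between replicates 3 and 4 (33 genes). Across all genes with a summit in both, the same pairs gave 0.231 and 0.530. These are correlations across genes that share libraries and, in part, summits. The SD of a gene's percentile over replicates had a median of 22.0 over the members and 20.4 over all marked genes, so neighbouring ranks among the 33 genes did not differ beyond that spread.

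Other genes of splicing and snRNP production were counted from 7 lists outside the symbol rule. Of 58 genes 54 were marked and 49 had an inside summit, against the 43.9% and 31.1% of all genes. All 11 further spliceosome components were marked. They were led by pea, the fly Prp22 helicase, at 95.1 ± 4.12 (SD, n = 4), although pea had no summit inside the gene in any replicate. All 7 partners of Prp19 in its complex were marked, with BCAS2 highest at 84.5 ± 10.3, and so were all 9 SR protein genes, with SC35 highest at 89.1 ± 6.40.

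The exon junction complex, deposited on spliced mRNA, had 5 of 5 genes marked, led by CG7483, the fly eIF4AIII, at 81.0 ± 6.29 (SD, n = 4). Of 10 snRNP assembly genes 9 were marked, led by Phax, the snRNA export adaptor, at 92.3 ± 4.22. The exception was icln, a chaperone of Sm proteins, with percentiles of 19.4 and 36.1 in replicates 3 and 4 and no summit in replicates 1 and 2. Of 9 genes that work with LSm proteins in mRNA decay or histone mRNA processing 8 were marked, led by Patr-1 at 90.4 ± 9.16. The helicase gene me31B was not, with 4.47 and 46.5 in replicates 3 and 4 only.

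Of 7 hnRNP genes, whose proteins bind pre-mRNA and modulate splice choice, 5 were marked. They were led by glo at 88.9 ± 10.4 (SD, n = 4). HnRNP-K had a summit in replicates 3 and 4, at 55.1 and 78.0, and heph, the fly PTB gene, had none in any replicate. The 4 unmarked genes of these lists included 3 seen only in replicates 3 and 4, which have the longest summit lists. B52, of the SR list, and Hrb87F, of the hnRNP list, had the same percentile in every replicate (92.3, 21.2, 45.8 and 96.0). Likewise x16, of the SR list, and Hrb27C, of the hnRNP list, had the same values in replicates 2 and 3 (90.9 and 92.9). Each summit was credited to every gene within 1 kb, so genes of these lists may share summits and their counts are not independent.

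**Figure D4:**
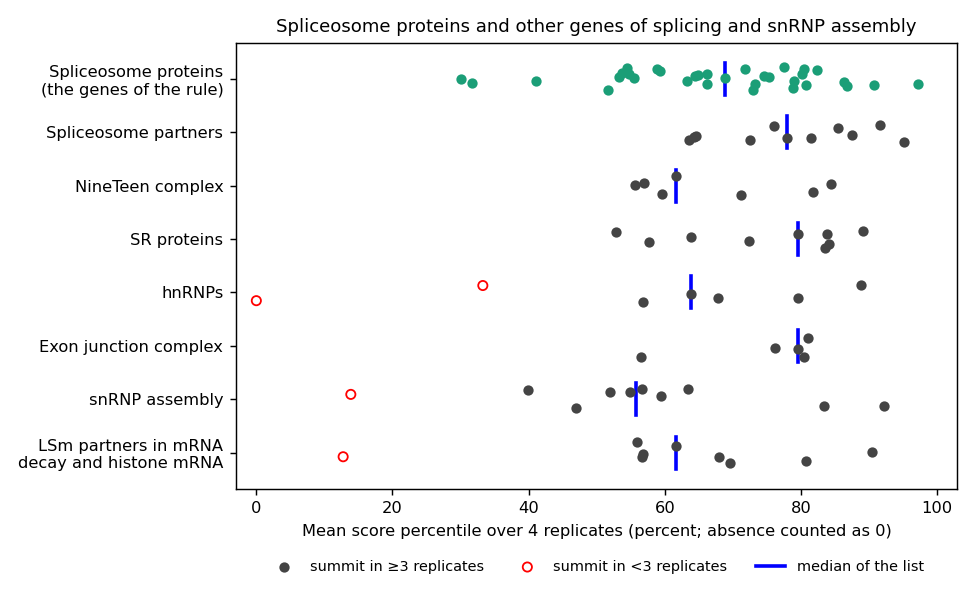
Points give each gene's mean score percentile over 4 replicates for the 33 spliceosome protein genes and 7 other lists of splicing and snRNP genes, blue bars the list medians, and open red circles the genes with a summit in fewer than 3 replicates. The 4 open circles are heph, me31B, icln and HnRNP-K.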

How the data were processed

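H3K4me3 ChIP-seq summits of 4 fly larval replicates were analysed. The submitters' processing notes name MACS2, BWA 0.7.17, cutadapt 1.16, FastQC 0.11.7, SAMtools 1.9 and Picard 2.17.11, with no settings. For the build, duplicate handling and use of input, details were not given in the sources used here. The authors deposited 1 list per sample, with no pooling, and its score is a −log10 value, of p or of q, which the files do not say. Scores were ranked within a replicate and never averaged across replicates.

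Genes came from a RefSeq table (Release 6) without strand or sequence, so gene starts and promoter motifs were not analysed. Of a replicate's summits, 84.7% to 87.2% lay within 500 bp of a coding gene end, against 25.4% to 27.7% after a shift of 10 kb. Genes on 6 arms were searched, positions are 1-based, and 1 summit off the arms was left out.

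The members and lists were chosen with earlier results of these data known, so they were not tested against other genes and all comparisons are descriptions. Dixon's ratio was used only to flag single replicates. Values in every replicate are given for family leaders, genes absent from a replicate, the 5 largest SDs, the 5 widest position shifts and genes whose strongest summit lay outside. LSm-4 was added after its values were seen. Counting was tested on simulated summits. Tables were made with pandas 2.3.3, numpy 2.4.6 and scipy 1.17.1 in Python 3.11.15, and figures with matplotlib 3.10.9.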

Additional observations from a re-analysis of the deposited data

Results flagged for a closer look

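Among 35 sets of 4 replicate values (33 gene percentiles and 2 shares of members), 2 held a replicate far from the others by Dixon's ratio. For independent, normally distributed values chance flags about 1 in 20 sets. Percentiles are bounded and all 35 sets share the same 4 libraries, so the 2 flags cannot be judged against that rate. The percentile of snRNP-U1-70K in replicate 1 was 31.4, with a ratio of 0.923. That of Prp8 in replicate 1 was 0, which stands for no summit, with a ratio of 0.993. Both were the lowest value and both fell in replicate 1, which has the fewest summits. Its part in them was not tested.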

How the results depend on the processing

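All 33 members were marked under each of these alternatives, given with the share of all genes marked by the same rule: windows of 500 bp (36.1%) or 2 kb (49.2%), at least 2 replicates (47.0%), equal numbers of summits (3518 per replicate, 36.6%), the whole gene span (44.9%) and each replicate left out in turn (44.1% to 46.8%). With a score of at least 5, 32 were marked, against 41.3%. A window of 250 bp left 16 members, against 18.9% of all genes, and 15 with the summit inside the gene, against 17.4%. Asking for an inside summit in all 4 replicates left 14 members, against 18.8%. The cause of these falls was not tested. Without each replicate in turn, 27 to 30 members had one in at least 2 of the other 3, against 32.7% to 35.8% of all genes. The median distance from the strongest summit to the nearest end was 343.5 bp, and 240 bp with the summit nearest to the end. The median of mean percentiles was 59.4 to 74.1 under its alternatives. The rule that no other coding gene covers the summit was added after seeing the data. The alternative of gene starts alone was not run, since strand was not given. No paired analysis was possible because no groups were compared.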

Other observations

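Genes named as snRNA were looked at after the protein genes had been seen. The set holds the spliceosomal snRNAs but also U7 and 7SK genes, which are not part of the spliceosome. Of 32 snRNA genes on the arms, 2 (6.25%) had a summit within 1 kb in at least 3 replicates, against 43.9% of all protein-coding genes. The 2 were a U5 copy on 2L (15751557 to 15751682, 4 replicates) and a 7SK copy on 3R (7474553 to 7474996, 3 replicates). The other 30 had none in any replicate. Several snRNA genes start inside a coding gene. Whether the summits near the 2 marked copies lie in a coding gene was not examined. Many snRNA genes have near-identical copies, and how reads with several matches were treated is not given in the sources used here. Deep inside Prp16, 2 replicates had a summit at least 9429 bp from either end, between X 14210791 and 14211196, the first of them where l(1)G0469 overlaps Prp16.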
